A study of Homo sapiens with 9 samples.

Results

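Heat shock chaperones were followed as a group of 10 genes among the 58735 genes of the count table: HSPE1, HSPD1, HSPA1A, HSPA1B, HSPA8, HSP90AA1, HSP90AB1, DNAJB1, HSPB1 and HSPH1. They were taken by gene symbol, and all 10 were found once and passed the filter on low counts in every comparison. The list was chosen from measured values, since it was built around HSPE1 after its counts had been seen to rise with LINC00996. All values come from RNA-seq of A549, an established human lung adenocarcinoma cell line, transfected with plasmids using the jetPRIME reagent. The control cells carried a control plasmid, labelled PC3.1, PC3.2 or PC3.3 in the respective replicates, while the study's text names PC3.1 alone as the control. The LINC00996 cells overexpressed the long non-coding RNA LINC00996, the AP001189.3 cells overexpressed the long non-coding RNA AP001189.3, and there were 3 libraries of each kind. No source used here says how long after transfection RNA was taken, so the values are from transient expression in 1 cell line at a time that is not known. Nothing in the labels says that the 3 libraries of a group came from separate cultures, and p-values then measure only the spread between these libraries, which may be technical.

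Chaperones bind unfolded or newly made proteins and help them to fold. HSPD1 forms the barrel of the mitochondrial chaperonin and HSPE1 its lid, and the barrel needs the lid to release a folded protein. In the cytosol, proteins of the HSP70 family (HSPA1A, HSPA1B and HSPA8) take up clients with the help of J-domain proteins such as DNAJB1 and of nucleotide exchange factors such as HSPH1, and pass part of them to the HSP90 proteins HSP90AA1 and HSP90AB1, while the small heat shock protein HSPB1 holds unfolded clients without using ATP. Under heat or other protein stress, the transcription factor HSF1 binds heat shock elements in the promoters of many of these genes. Such an element is made of GAA units that repeat in alternating orientation. Cancer cells, A549 among them, express many of these chaperones without heat.

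HSPE1 (ENSG00000115541, chr2:197499994-197503457, plus strand) and HSPD1 (ENSG00000144381, chr2:197486581-197516737, minus strand) lie head to head on chromosome 2, and their RefSeq start sites nearest to each other are 105 bases apart. RefSeq promoter windows of 300 bases (250 before and 50 after a start site, GRCh38.p14) were found for all 10 genes, 16 windows in all, and were searched for the heat shock element cores GAANNTTC and TTCNNGAA. Each core reads the same on both strands, and neighbouring cores can overlap. The windows below are those of the mitochondrial pair and of HSPA1A, HSPA1B, HSPA8 and HSP90AA1, and capitals mark every core found. They are a part of the set: every cytosolic window shown holds a core, whereas that of HSPH1, left out here, holds none. The other HSP90AA1 window also holds none. The HSPE1 window holds no core. It shares 204 bases with the first HSPD1 window, which also holds none, and the HSPD1 window shown is that of a start site further from HSPE1.
HSPE1 (chr2:197500129-197500428, plus strand): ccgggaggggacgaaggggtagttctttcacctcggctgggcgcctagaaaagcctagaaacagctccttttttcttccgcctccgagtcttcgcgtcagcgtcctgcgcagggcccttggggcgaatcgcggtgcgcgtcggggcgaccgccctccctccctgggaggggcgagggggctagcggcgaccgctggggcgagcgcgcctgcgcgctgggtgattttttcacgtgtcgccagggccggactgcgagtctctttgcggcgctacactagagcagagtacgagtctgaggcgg
HSPD1 (chr2:197499791-197500090, minus strand): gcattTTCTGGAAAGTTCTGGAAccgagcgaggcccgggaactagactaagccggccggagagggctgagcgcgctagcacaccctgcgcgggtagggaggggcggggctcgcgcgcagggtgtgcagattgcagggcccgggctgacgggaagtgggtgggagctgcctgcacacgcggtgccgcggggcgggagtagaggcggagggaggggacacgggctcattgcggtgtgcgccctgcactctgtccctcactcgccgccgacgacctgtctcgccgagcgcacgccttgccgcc
HSPA1A (chr6:31815293-31815592, plus strand): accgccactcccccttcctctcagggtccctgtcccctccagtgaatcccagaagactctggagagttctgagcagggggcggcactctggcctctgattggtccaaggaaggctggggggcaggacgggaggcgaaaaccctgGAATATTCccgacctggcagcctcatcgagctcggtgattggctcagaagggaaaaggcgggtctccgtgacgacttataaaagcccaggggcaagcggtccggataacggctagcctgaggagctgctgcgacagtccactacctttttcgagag
HSPA1B (chr6:31827488-31827787, plus strand): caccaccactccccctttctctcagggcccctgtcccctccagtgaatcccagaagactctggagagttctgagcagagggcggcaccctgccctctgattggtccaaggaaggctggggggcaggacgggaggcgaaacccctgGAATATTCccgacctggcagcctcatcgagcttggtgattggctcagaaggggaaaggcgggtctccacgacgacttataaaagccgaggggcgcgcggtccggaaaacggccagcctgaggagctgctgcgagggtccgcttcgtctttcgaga
HSPA8 (chr11:123062087-123062386, minus strand): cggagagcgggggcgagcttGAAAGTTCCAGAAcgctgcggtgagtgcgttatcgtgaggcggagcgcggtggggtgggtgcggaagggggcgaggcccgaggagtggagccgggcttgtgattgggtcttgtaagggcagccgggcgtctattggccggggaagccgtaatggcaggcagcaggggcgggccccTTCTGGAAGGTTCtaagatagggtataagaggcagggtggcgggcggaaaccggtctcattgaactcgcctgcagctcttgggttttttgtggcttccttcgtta
HSP90AA1 (chr14:102086995-102087294, minus strand): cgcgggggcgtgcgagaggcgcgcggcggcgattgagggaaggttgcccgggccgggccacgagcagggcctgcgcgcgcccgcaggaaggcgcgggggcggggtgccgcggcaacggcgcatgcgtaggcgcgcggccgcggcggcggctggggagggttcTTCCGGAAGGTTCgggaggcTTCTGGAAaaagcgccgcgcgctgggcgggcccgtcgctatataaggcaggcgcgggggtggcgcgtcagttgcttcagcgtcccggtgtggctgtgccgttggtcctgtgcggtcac

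In the HSPD1 window shown, the cores overlap into a run of at least 3 units that begins 294 bases upstream of the HSPE1 start site. The HSPA1A and HSPA1B windows were identical at 277 of 299 aligned bases (92.6%), and each held a single core, which begins 106 bases upstream of the start site in HSPA1A and 105 bases upstream in HSPA1B. A core was found in 9 of the 16 windows, and 8 of the 10 genes had at least 1 window with a core (all but HSPE1 and HSPH1). Among all 35116 RefSeq windows of this length, 13.49% held a core, and 16.18% of the 27305 genes had a core in any window. A run of at least 3 units was found in a window of HSPD1, HSPA8, HSP90AA1 and HSP90AB1, against 0.608% of all genes. These are matches of letters, and no binding was measured.

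The libraries held 15272450 to 18125447 counts. LINC00996 had 4373 to 5952 counts in the libraries labelled with it and 4 to 9 in the other 6, and AP001189.3 had 1660 to 2378 counts against 0 to 2. Genes that mark A549 (KRT8, KRT18, AKR1B10, AKR1C1, ALDH1A1 and NQO1) had 7079 to 111613 counts per library. CDKN2A, which is deleted in this line, was at 0 counts in all 9 libraries, the blood cell gene PTPRC had at most 1 count, and the endothelial and fibroblast genes PECAM1, COL1A1 and COL3A1 had 36 to 362. Several of these markers moved with the groups. ALDH1A1 was at 2928 ± 51.8, 5827 ± 217 and 3656 ± 173 CPM (counts scaled to library size with TMM factors, SD, n = 3) in the control, LINC00996 and AP001189.3 groups, AKR1B10 at 717 ± 21.4, 1371 ± 13.2 and 702 ± 47.8 CPM, and NQO1 at 955 ± 7.91, 1310 ± 16.0 and 965 ± 35.6 CPM. PECAM1 was at 8.11 ± 0.678, 3.03 ± 0.521 and 4.65 ± 0.510 CPM, COL1A1 at 20.9 ± 1.46, 13.6 ± 1.59 and 19.5 ± 1.6 CPM, and COL3A1 at 2.44 ± 0.312, 3.49 ± 0.574 and 2.40 ± 0.208 CPM. The part of these shifts in the chaperone differences was not tested. LINC00996 replicate 1 stood apart from the other LINC00996 libraries: its counts differed from theirs by a mean chi-square of 22.2 and 33.4 per gene, against 2.25 to 7.27 for every other pair of replicates. Its levels, relative to the mean of each gene over the 9 libraries, rose with the GC content of the transcript (Spearman rho of 0.436 across 16090 genes, which are not independent), whereas those of LINC00996 replicates 2 and 3 fell with it (rho of -0.251 and -0.434). Log2 fold changes of the LINC00996 libraries are therefore also given without this library, as are list medians and correlations.

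In every library the 10 genes together took a small share of all counts. The share was 0.341 to 0.362% in control, 0.428 to 0.493% in LINC00996 and 0.315 to 0.347% in AP001189.3 libraries. Between genes, levels were compared per length as FPKM (fragments per kilobase of gene model, scaled to the library total). In the control libraries HSP90AB1 was highest at 365 ± 11.9 FPKM (SD, n = 3), followed by HSP90AA1 (171 ± 6.85 FPKM), HSPB1 (161 ± 13.7 FPKM), HSPA8 (117 ± 5.59 FPKM) and HSPD1 (92.5 ± 4.46 FPKM). A gap separated these from DNAJB1 (23.7 ± 0.928 FPKM), HSPH1 (14.6 ± 1.5 FPKM), HSPA1A (9.27 ± 1.24 FPKM), HSPE1 (8.90 ± 0.454 FPKM) and HSPA1B (6.87 ± 0.654 FPKM). The gap between HSPA1A and HSPE1 was smaller than the SD of either, and that between HSP90AA1 and HSPB1 was smaller than the SD of HSPB1 but not of HSP90AA1. In the LINC00996 libraries HSPE1 moved from rank 9 of the 10 genes to rank 6, at 25.5 ± 2.82 FPKM, where it did not differ from DNAJB1 (25.2 ± 1.29 FPKM) beyond the SD. In the AP001189.3 libraries it was at rank 7, at 15.1 ± 1.52 FPKM. The FPKM of HSPE1 rests on a gene model of 1977 exon bases, whereas the median of its annotated transcripts is 570 bases, so its level relative to the other genes depends on the length used.

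**Figure D1:**
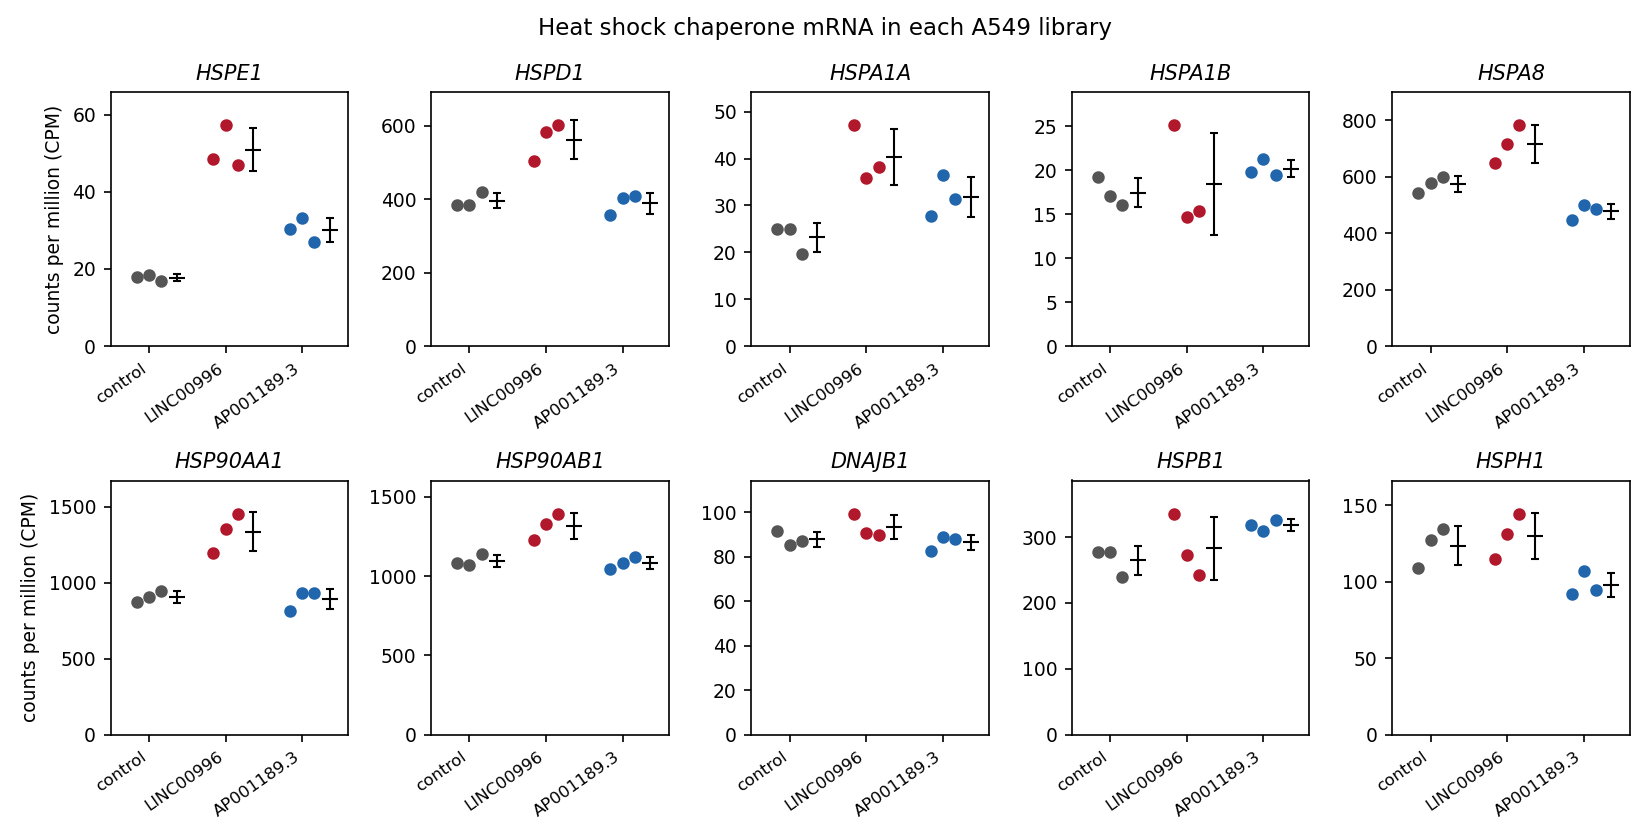
Levels of the 10 chaperone genes in each library, as CPM (y axis from 0) in the control, LINC00996 and AP001189.3 groups. Each point is a library, ordered by replicate number, and the black mark with bars is the mean ± SD (n = 3). HSPE1 is separated into 3 levels (16.8 to 18.5, 47.0 to 57.3 and 27.0 to 33.1 CPM), whereas for DNAJB1 the control group overlaps both others.

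HSPE1, the lid of the mitochondrial chaperonin, was at a separate level in each of the 3 groups. Its level was 17.9, 18.5 and 16.8 CPM in control replicates 1 to 3. With LINC00996 it was 48.5, 57.3 and 47.0 CPM, and with AP001189.3 it was 30.2, 33.1 and 27.0 CPM. The 3 groups did not overlap, the AP001189.3 libraries lay between the others, and the raw counts behind these values ran from 292 to 903. In LINC00996 against control, the contrast that led to the choice of the gene, the log2 fold change was 1.52 (SE 0.12), a fold of 2.87, given as a description without a test. It was 1.55 without LINC00996 replicate 1, and 79 of the 16097 genes tested had a log2 fold change at least as high. HSPE1 was 1.70-fold higher in AP001189.3 than in control (log2 fold change 0.76, SE 0.10). This is again without a test, since the control libraries are those used in the choice of HSPE1. Between the plasmids, HSPE1 was 1.68-fold higher with LINC00996 (log2 fold change 0.75, SE 0.12, and 0.79 without LINC00996 replicate 1). That comparison uses the LINC00996 libraries on which the gene was chosen, so it too is given as a description without a test.

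HSPD1, the barrel of the same chaperonin, was higher with LINC00996 but not with AP001189.3. Its level was 385, 384 and 419 CPM in the control libraries. It was 503, 582 and 601 CPM with LINC00996 and 356, 403 and 408 CPM with AP001189.3. All LINC00996 libraries lay above all others, while the control and AP001189.3 libraries overlapped. The log2 fold change of LINC00996 against control was 0.50 (SE 0.09), and 0.58 without LINC00996 replicate 1. For AP001189.3 against control it was -0.02 (95% interval -0.14 to 0.09, edgeR quasi-likelihood test with Benjamini-Hochberg adjustment over all genes, adjusted p = 0.80), an interval that leaves out a change of the size seen in HSPE1. Between the plasmids, HSPD1 was 1.44-fold higher with LINC00996 (log2 fold change 0.53, SE 0.10, and 0.61 without LINC00996 replicate 1), which as the partner of HSPE1 is also given without a test on the LINC00996 libraries. The other 8 genes were taken as the heat shock family and are tested between the plasmids, but results of these libraries were known when the group was chosen, so those tests are not independent of the choice either.

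Since HSPE1 and HSPD1 subunits work together and their genes share a promoter region, the ratio of their counts was formed within each library, where scaling drops out. The control libraries held 4.64, 4.83 and 4.01 HSPE1 counts per 100 HSPD1 counts. The LINC00996 libraries held 9.65, 9.84 and 7.82, and the AP001189.3 libraries held 8.49, 8.22 and 6.62. Every library with an overexpressed lncRNA lay above every control library, and the LINC00996 and AP001189.3 libraries overlapped. On the log2 scale the ratio was -4.48 ± 0.14 (SD, n = 3) in the control group, -3.47 ± 0.18 with LINC00996 and -3.69 ± 0.20 with AP001189.3. With 3 libraries against 3 an exact permutation test cannot pass the threshold, and none was made.

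**Figure D2:**
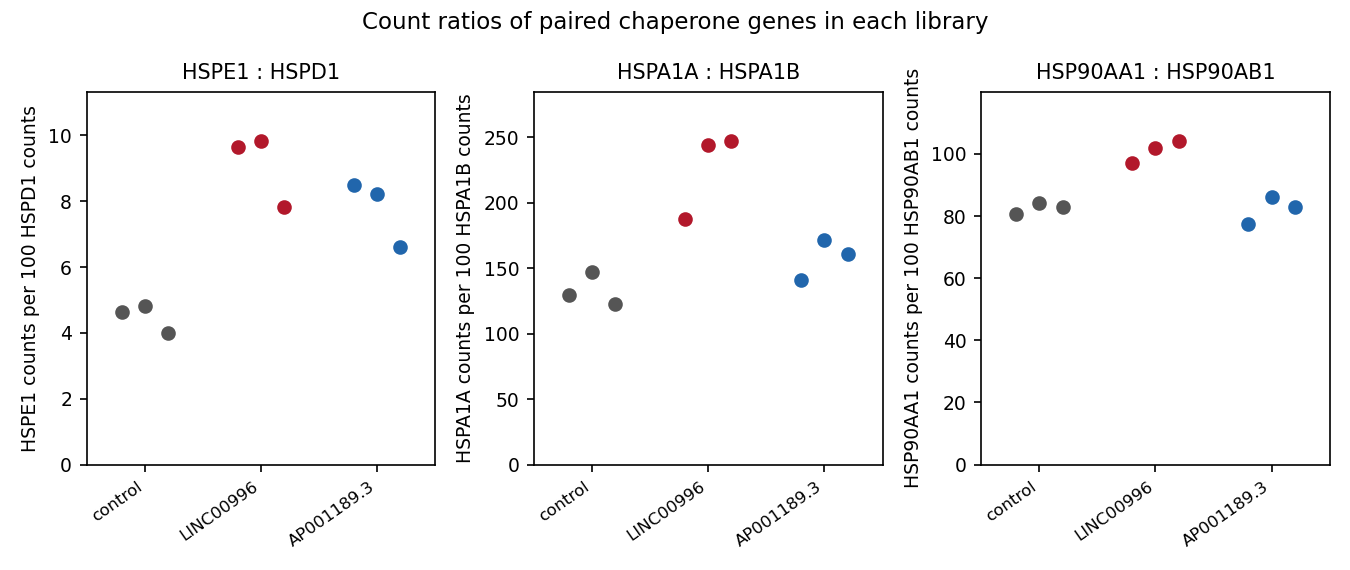
Count ratios of 3 pairs of related genes in each library, as counts of the first gene per 100 counts of the second (y axes from 0). Each point is a library, ordered by replicate number. The HSPE1 to HSPD1 ratio is 4.01 to 4.83 in the control libraries and 6.62 to 9.84 in the other 6, and the ratios HSPA1A to HSPA1B and HSP90AA1 to HSP90AB1 are highest in the LINC00996 libraries.

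Several features of the HSPE1 locus bear on how its reads could be counted. Of its 1977 exon bases, 473 (23.9%) are shared with other annotated genes, 281 with an exon of HSPD1 on the opposite strand and 192 with the readthrough gene HSPE1-MOB4 on the same strand. HSPE1-MOB4 had 0 counts in 8 libraries and 1 count in AP001189.3 replicate 3. MOB4, the next gene downstream and a member of the readthrough, was at 14.8 to 25.1 CPM and was not called in any comparison (log2 fold changes -0.16, -0.21 and 0.05, smallest edgeR adjusted p = 0.18). Without control replicate 1 it was called lower in AP001189.3 against control (-0.34, edgeR adjusted p = 0.022), and without LINC00996 replicate 1 it was at 0.01 in LINC00996 against control and 0.23 between the plasmids. HSPE1 also has 26 annotated pseudogene copies, which together held 5 to 34 counts per library, or 0.561 to 5.59% of the counts of gene and copies, with the highest shares in the control libraries. HSPD1 has 17 such copies, with 74 to 158 counts per library and 0.853 to 1.69% of the sum. How reads on shared bases, on copies or on either strand were treated is not given in the sources used here, and the part of this in the HSPE1 difference was not tested.

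**Figure D3:**
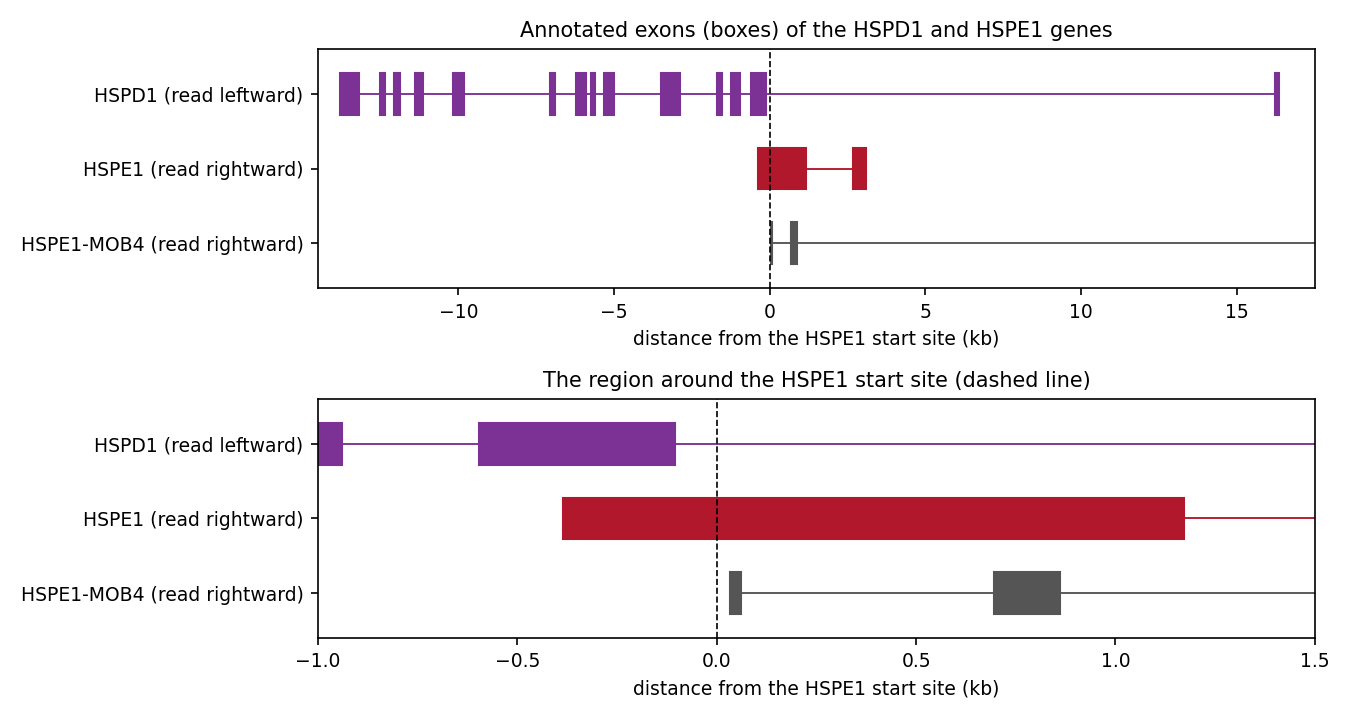
Annotated exons of HSPD1, HSPE1 and the readthrough gene HSPE1-MOB4 (boxes) by distance from the HSPE1 start site in kilobases, with the region around the start site enlarged below. The 2 genes are read in opposite directions, and exons of HSPD1 and of HSPE1-MOB4 overlap the long annotated first exon block of HSPE1, by 281 and 192 bases. HSPE1-MOB4 runs on beyond the right edge.

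Log2 fold changes or calls differed by transcript length in the 3 comparisons, so length is given beside HSPE1, whose transcripts are short. Among other genes whose mean reached 10 CPM and whose median transcript had up to 700 bases, the median log2 fold change of LINC00996 against control was 0.30, and 36.2% of these 271 genes were called higher. That share was 10.7% over all genes tested. For transcripts over 5000 bases the median was -0.11, and 4.89% were called higher. HSPE1 at 1.52 was reached by 8 of the 271 short genes. With LINC00996 replicate 1 left out, these medians were 0.19 and -0.08, 35.1% of the short genes were called higher, and 4 of them reached the HSPE1 value. The share called higher was then 13.3% over 5000 bases and 15.9% over all genes. Between the plasmids the median of the 272 short genes was 0.30, 26.5% of them were called higher and 9 reached the HSPE1 value of 0.75, against 0.15, 41.9% and 3 without LINC00996 replicate 1. The shares called higher were 7.37% over 5000 bases and 9.38% over all genes, and 27.9% and 20.3% without LINC00996 replicate 1. The median of the 272 short genes was -0.00 in AP001189.3 against control, and 19 of them reached the HSPE1 value of 0.76. With an offset fitted to transcript length in each library, added after the data had been seen, the HSPE1 log2 fold change was 1.37 for LINC00996 and 0.66 for AP001189.3 against control.

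HSPA1A (ENSG00000204389, chr6:31815464-31817946, plus strand) and HSPA1B (ENSG00000204388, chr6:31827735-31830255, plus strand) are neighbouring genes that encode the same heat-inducible HSP70 protein, and reads from their near-identical copies may be assigned to either, so each value below is uncertain. HSPA1A was at 24.9, 25.0 and 19.7 CPM in the control libraries. It was at 47.1, 35.9 and 38.1 CPM with LINC00996 and at 27.8, 36.4 and 31.3 CPM with AP001189.3. Both overexpression groups lay wholly above the control group and overlapped each other. The log2 fold change of LINC00996 against control was 0.80 (SE 0.14), and 0.68 without LINC00996 replicate 1, which was the highest of the 9 libraries. HSPA1A rose 1.37-fold in AP001189.3 against control (log2 fold change 0.46, SE 0.11, edgeR adjusted p = 0.0034), with an adjusted p of 0.082 when all 9 libraries shared 1 fit. Between the plasmids the difference missed the threshold (0.34, 95% interval 0.04 to 0.63, edgeR adjusted p = 0.097). It was 0.22 (adjusted p = 0.060) without LINC00996 replicate 1 and passed the threshold with the gene length, transcript length and GC offsets (0.37, 0.39 and 0.46).

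HSPA1B did not pass the test in any comparison of the 3 groups. Its level was 19.2, 17.1 and 16.0 CPM in the control libraries, 25.1, 14.7 and 15.4 CPM with LINC00996, and 19.8, 21.3 and 19.5 CPM with AP001189.3. LINC00996 replicate 1 was the highest of all libraries while replicates 2 and 3 were the lowest, so the LINC00996 group overlapped both others. The log2 fold change of LINC00996 against control was 0.08 (SE 0.19), and -0.21 without replicate 1. Against control, AP001189.3 gave 0.21 (95% interval -0.00 to 0.42, edgeR adjusted p = 0.16). Between the plasmids it was -0.13 (edgeR adjusted p = 0.65), but without LINC00996 replicate 1 it was -0.42 with an adjusted p of 0.0025. In that setting 41.6% of all genes were called in place of 21.4%. Settings that kept all libraries gave -0.17 to -0.028 for HSPA1B. Its transcripts are GC-rich (58.7%), and the part of GC content was not tested. Taken as a ratio, there were 123 to 147 HSPA1A counts per 100 HSPA1B counts in the control libraries, 188 to 247 with LINC00996 and 141 to 171 with AP001189.3. The ratio in the LINC00996 group did not overlap that in the other groups. Of the 2521 exon bases of HSPA1B, 920 are shared with the gene AL671762.1.

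DNAJB1 (ENSG00000132002, chr19:14514770-14529770, minus strand), the J-domain protein that works with HSP70, was nearly level across the groups. It was at 91.6, 85.1 and 86.9 CPM in the control libraries, 99.5, 90.9 and 90.0 CPM with LINC00996, and 82.7, 88.8 and 88.2 CPM with AP001189.3. The control group overlapped both others. Its log2 fold change was 0.09 (SE 0.09, and 0.04 without LINC00996 replicate 1) for LINC00996 and -0.02 (95% interval -0.14 to 0.10, edgeR adjusted p = 0.84) for AP001189.3 against control, and 0.11 (95% interval -0.09 to 0.30, edgeR adjusted p = 0.44, and 0.06 without LINC00996 replicate 1) between the plasmids, where it passed the threshold with the GC offset (0.17, adjusted p = 0.028). Of its 3672 exon bases, 228 are shared with TECR and MIR639.

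HSPH1 (ENSG00000120694, chr13:31134974-31162388, minus strand), a nucleotide exchange factor of HSP70, was lower with AP001189.3. It was at 109, 127 and 134 CPM in the control libraries and at 115, 131 and 144 CPM with LINC00996, groups that overlapped (log2 fold change 0.07, SE 0.11, and 0.16 without LINC00996 replicate 1). In the AP001189.3 libraries it was at 91.7, 107 and 94.5 CPM, below every library of both other groups. HSPH1 fell in AP001189.3 against control to 0.790 of the control level (log2 fold change -0.34, SE 0.07, edgeR adjusted p = 0.0019), with an adjusted p of 0.087 when all 9 libraries shared 1 fit. Between the plasmids it was 1.33-fold higher with LINC00996 (0.41, SE 0.11, edgeR adjusted p = 0.020, and 0.50 without LINC00996 replicate 1), and the adjusted p rose to between 0.054 and 0.11 when LINC00996 replicate 2 or 3 or AP001189.3 replicate 1 or 3 was left out.

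HSPA8 (ENSG00000109971, chr11:123057489-123063230, minus strand), the HSP70 protein that cells make without stress, lay on opposite sides of the control level with LINC00996 and with AP001189.3. Its level was 544, 577 and 600 CPM in the control libraries. It was 649, 716 and 783 CPM with LINC00996 and 449, 500 and 485 CPM with AP001189.3. The 3 groups did not overlap, with the control libraries in the middle. The log2 fold change of LINC00996 against control was 0.32 (SE 0.09), and 0.39 without LINC00996 replicate 1. HSPA8 fell in AP001189.3 against control to 0.833 of the control level (log2 fold change -0.26, SE 0.05, edgeR adjusted p = 0.00062), with an adjusted p of 0.093 when all 9 libraries shared 1 fit. It was 1.49-fold higher with LINC00996 than with AP001189.3 (0.58, SE 0.09, edgeR adjusted p = 0.0011, and 0.65 without LINC00996 replicate 1). Its exons hold the small nucleolar RNA genes SNORD14C and SNORD14D, over 175 of 4849 bases.

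HSP90AA1 (ENSG00000080824, chr14:102080738-102139699, minus strand), the more inducible of the cytosolic HSP90 genes, was higher with LINC00996 than in both other groups. Its level was 871, 903 and 946 CPM in the control libraries. It was 1197, 1356 and 1455 CPM with LINC00996 and 813, 934 and 931 CPM with AP001189.3. All LINC00996 libraries lay above all others, and the control and AP001189.3 groups overlapped. Its log2 fold change was 0.56 (SE 0.09, and 0.63 without LINC00996 replicate 1) for LINC00996 and -0.02 (95% interval -0.13 to 0.09, edgeR adjusted p = 0.82) for AP001189.3 against control. Between the plasmids HSP90AA1 was 1.49-fold higher with LINC00996 (0.58, SE 0.10, edgeR adjusted p = 0.0014), and the value was 0.66 without LINC00996 replicate 1. The gene shares 197 of 5248 exon bases with WDR20 and has 4 annotated pseudogene copies, which held 56 to 107 counts per library.

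HSP90AB1 (ENSG00000096384, chr6:44246166-44253888, plus strand), the steadily expressed HSP90 gene and the most abundant of the 10 per length, showed the same order with smaller differences. It was at 1080, 1070 and 1139 CPM in the control libraries, 1231, 1332 and 1395 CPM with LINC00996, and 1048, 1086 and 1120 CPM with AP001189.3. Again the LINC00996 libraries lay above all others. Its log2 fold change was 0.27 (SE 0.08, and 0.31 without LINC00996 replicate 1) for LINC00996 and -0.02 (95% interval -0.11 to 0.08, edgeR adjusted p = 0.86) for AP001189.3 against control. Between the plasmids it was 0.28 (SE 0.08, edgeR adjusted p = 0.029, and 0.33 without LINC00996 replicate 1), and the adjusted p rose to between 0.082 and 0.12 when any library other than LINC00996 replicate 1 was left out. There were 80.6 to 84.4 HSP90AA1 counts per 100 HSP90AB1 counts in the control libraries, 77.6 to 86.0 with AP001189.3 and 97.2 to 104 with LINC00996, a range that did not overlap the others.

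HSPB1 (ENSG00000106211, chr7:76302544-76304295, plus strand), the small heat shock protein, was higher with AP001189.3, as HSPE1 and HSPA1A were. It was at 277, 278 and 239 CPM in the control libraries and at 319, 309 and 326 CPM with AP001189.3, without overlap. HSPB1 rose 1.2-fold in AP001189.3 against control (log2 fold change 0.27, SE 0.06, edgeR adjusted p = 0.0012). The adjusted p was 0.17 when all 9 libraries shared 1 fit, and with an offset for GC content, added after the data had been seen, the log2 fold change was 0.07 with an adjusted p of 0.36. With the gene length and transcript length offsets it was 0.16 and 0.17 and stayed past the threshold. The transcripts of HSPB1 have the highest GC content of the 10 genes (62.2%), and levels rose with GC content in all AP001189.3 libraries (rho of 0.215 to 0.364) and in no control library (-0.286 to -0.006). The part of GC content in the HSPB1 difference was not tested beyond this offset. With LINC00996 it was at 336, 273 and 242 CPM, a spread that overlapped both other groups (log2 fold change against control 0.10, SE 0.12, and -0.04 without LINC00996 replicate 1). Between the plasmids it was -0.17 (95% interval -0.41 to 0.07, edgeR adjusted p = 0.30), and without LINC00996 replicate 1 it was -0.31 and passed the threshold (adjusted p = 3.40e-05). In that setting 41.6% of all genes were called in place of 21.4%. LINC00996 replicates 2 and 3 fell with GC content (rho of -0.251 and -0.434), whereas the AP001189.3 libraries rose with it, and the part of this was not tested. Settings that kept all libraries gave -0.21 to -0.019 for HSPB1.

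**Figure D4:**
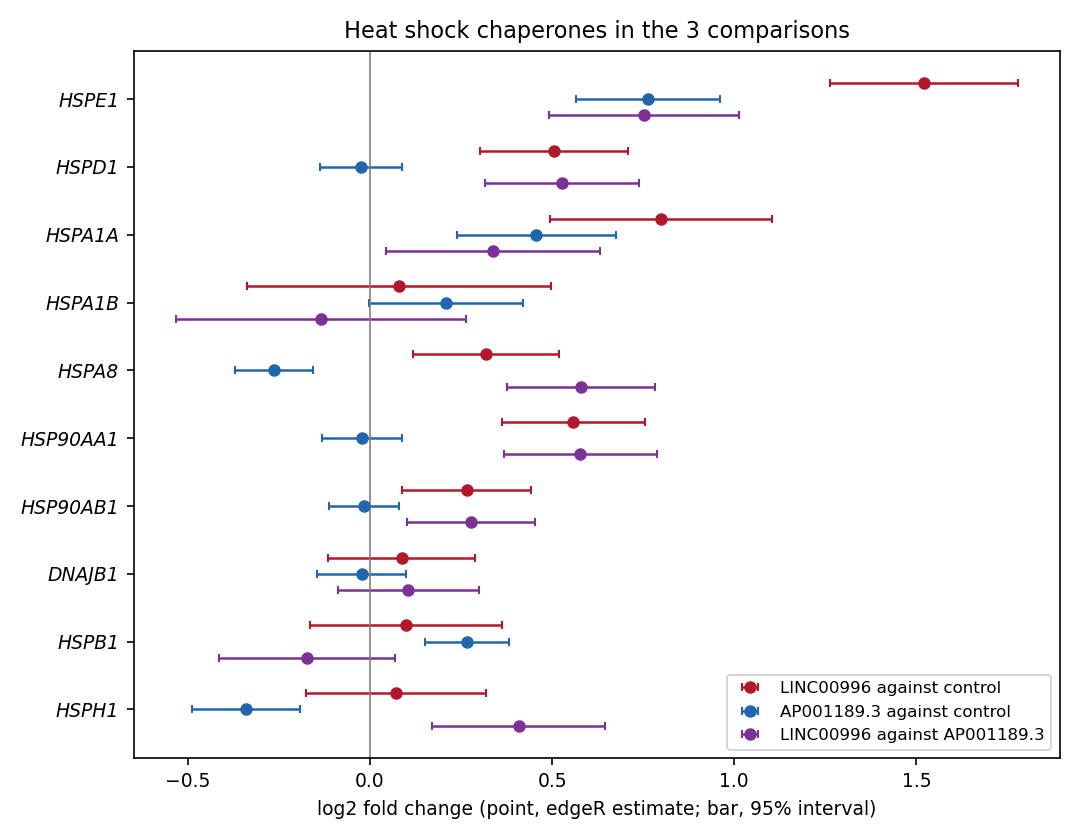
Log2 fold changes of the 10 chaperone genes (y axis) in the 3 comparisons, with 95% intervals from edgeR on the x axis. HSPE1 is to the right of 0 in all 3 comparisons (1.52, 0.76 and 0.75), and HSPA8 is to the right of 0 for LINC00996 and to the left for AP001189.3 against control.

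Across the 10 genes, 6 were called higher and 0 lower in LINC00996 against control (HSPE1, HSPD1, HSPA1A, HSPA8, HSP90AA1 and HSP90AB1), where 10.7% of all 16097 genes tested were called higher and 11.6% lower. HSPE1 was chosen on that comparison, and nothing is read from the count. HSPA8 and HSP90AB1 lost the call there when any library other than LINC00996 replicate 1 was left out. The median log2 fold change of the 10 genes was 0.29, beside 0.01 over all genes tested, and all 10 estimates were above 0. The median of the 10 genes was 0.35 without LINC00996 replicate 1. In AP001189.3 against control, 3 were called higher (HSPA1A, HSPB1 and HSPE1, the last of which is given as a description), 2 fell (HSPA8 and HSPH1) and 5 did not pass the test, where 11.4% of 16023 genes were called higher and 8.49% lower. The median was -0.02, beside -0.00 over all genes. With all 9 libraries in 1 fit, 437 of 16560 genes (2.64%) were called in place of 3180 (19.8%). HSPA1A, HSPB1, HSPA8 and HSPH1 lost their calls there. The call of HSPE1 stayed but is not read, since that fit holds the libraries on which it was chosen. In LINC00996 against AP001189.3, 6 were higher with LINC00996 (HSPA8, HSP90AA1, HSP90AB1, HSPH1, HSPD1 and HSPE1, the last 2 of which are given as a description) and 0 lower, where 9.38% of 16095 genes were called higher and 12.1% lower, with a median of 0.37 beside 0.02 over all genes, and of 0.41 without LINC00996 replicate 1. With library size alone as the scaling, the split over all genes in that comparison was 2129 higher and 1667 lower in place of 1510 and 1942, with GC content as an offset 3350 and 2669, with gene length 2101 and 1792 and with transcript length 2025 and 1726. The 6 genes were called higher under each of these, where HSPD1 and HSPE1 are again given as a description. Without LINC00996 replicate 1, HSPA1B and HSPB1 were also called, both lower, where 20.3% of all genes were called higher and 21.3% lower. The comparisons share libraries, so their counts are not independent of each other.

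The genes of the group also varied among themselves over the 9 libraries, described here by Pearson's r of log2 CPM without a test, since all genes of a library share its depth and base composition and the libraries fall into 3 groups. HSPD1, HSP90AA1 and HSP90AB1 ran closely together (r = 0.988 to 0.997), and HSPA8 was close to them (0.908 to 0.914). HSPE1 was nearest to HSPA1A (0.889) and HSP90AA1 (0.786) and had r = 0.776 with HSPD1. HSPB1 and HSPH1 ran in opposite directions (-0.825). Over the 8 libraries without LINC00996 replicate 1 the first 3 genes had r = 0.990 to 0.997, HSPA8 0.904 to 0.910 with them, HSPE1 0.887 with HSPA1A, 0.765 with HSP90AA1 and 0.760 with HSPD1, and HSPB1 -0.922 with HSPH1. Among the 9585 protein-coding genes whose mean reached 10 CPM, the 5 whose pattern was most like that of HSPE1 were RPL22 (r = 0.988), HNRNPC (0.987), ALDH18A1 (0.986), NAA20 (0.981) and MRFAP1 (0.981). RPL22, a protein of the large ribosomal subunit, had mean levels of 50.5, 115 and 74.1 CPM in the control, LINC00996 and AP001189.3 groups. The 5 most like HSPD1 were NLN (0.993), KPNA2 (0.991), LACTB2 (0.985), MCM6 (0.985) and SLC26A2 (0.983). NLN, the peptidase neurolysin, was at 54.3, 83.2 and 52.3 CPM in the same order. Without LINC00996 replicate 1, 2 of the 5 genes named for HSPE1 and 2 of the 5 named for HSPD1 were again among the 5 most alike.

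Other chaperones were read from 4 lists of genes that work with or beside these 10. Their counts of called genes stand beside the shares over all genes tested, and without LINC00996 replicate 1 those shares were 15.9% higher and 17.3% lower in LINC00996 against control and 20.3% and 21.3% between the plasmids. The cytosolic chaperonin CCT, which folds actin and tubulin, and its partner prefoldin, which delivers them, had the highest median of the 4 lists in both comparisons of LINC00996. In LINC00996 against control, 10 of the 14 CCT and prefoldin genes rose, 0 fell and 4 did not pass the test, where 10.7% of all genes were called higher and 11.6% lower, with a median log2 fold change of 0.41. PFDN6 rose most (log2 fold change 1.71, SE 0.24, edgeR adjusted p = 0.00047), from 7.19 ± 2.42 CPM in the control libraries to 23.4 ± 5.84 CPM. CCT7 rose by 0.58 (SE 0.08, edgeR adjusted p = 0.00049) and CCT5 by 0.46 (SE 0.08, edgeR adjusted p = 0.0024). With LINC00996 replicate 1 left out, 11 rose and 1 fell, the median was 0.44, and PFDN6, CCT7 and CCT5 had log2 fold changes of 1.49, 0.56 and 0.44. With AP001189.3 against control 3 of the 14 rose and 2 fell, where 11.4% of all genes were called higher and 8.49% lower, with a median of 0.05. PFDN6 again rose (1.29, SE 0.20, edgeR adjusted p = 0.000575), as did CCT7 (0.26, SE 0.05), while PFDN1 fell (-0.24, SE 0.07). With all 9 libraries in 1 fit, which called 2.64% of all genes in place of 19.8%, PFDN6 kept its call, and it was the only gene of this list called. Between the plasmids 8 of the 14 were higher with LINC00996 and 0 lower, where 9.38% of all genes were called higher and 12.1% lower, with a median of 0.36, led by CCT5 (0.52), CCT3 (0.46) and CCT6A (0.44). When LINC00996 replicate 1 was left out there were 11 higher and 1 lower, the median was 0.35, and these 3 genes were at 0.51, 0.43 and 0.48. The number called fell along with the calls over all genes. In LINC00996 against control it fell from 10 to 6 without control replicate 1 or 2, where the share of all genes called went from 22.3% to 12.6 and 11.6%. In AP001189.3 against control it fell from 5 to 2 without AP001189.3 replicate 2, where the share went from 19.8 to 11.6% and PFDN1 lost its call. In LINC00996 against AP001189.3 it fell from 8 to 4 without LINC00996 replicate 2, to 2 without AP001189.3 replicate 1, where CCT6A lost its call, and to 3 without AP001189.3 replicate 2 or 3, and the share of all genes went from 21.4% to 12.8, 11.2, 11.8 and 11.7%.

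Cytosolic co-chaperones and heat shock factors numbered 34, of which 32 were tested in LINC00996 against control. HSPA14, which has more than 1 row in the table, and HSPA6, with 0 to 8 counts per library, were not tested. There 10 rose, 1 fell and 21 did not pass the test, beside 10.7% higher and 11.6% lower over all genes, with a median of 0.20. FKBP4, an HSP90 co-chaperone that binds steroid receptors, rose by 0.78 (SE 0.11, edgeR adjusted p = 0.00055), from 91.0 ± 5.59 to 156 ± 22.5 CPM. HSBP1, a small protein that binds heat shock factor 1, rose by 0.56 (SE 0.09, edgeR adjusted p = 0.0011), and AHSA1, which activates the ATPase of HSP90, by 0.57 (SE 0.11, edgeR adjusted p = 0.0027). When LINC00996 replicate 1 was left out, 12 rose and 3 fell, the median was 0.25, and FKBP4, HSBP1 and AHSA1 had log2 fold changes of 0.65, 0.54 and 0.46. The 1 gene that fell was HSF1 itself, named after its value had been seen (-0.39, SE 0.12, edgeR adjusted p = 0.035), at 100, 74.8 and 75.7 CPM with LINC00996 against 106 to 111 CPM in the control libraries. Its adjusted p rose to between 0.081 and 0.15 when any 1 control library or LINC00996 replicate 2 or 3 was left out, and without LINC00996 replicate 1 the log2 fold change was -0.54. HSF1 was at 104 ± 4.32 CPM with AP001189.3, against 109 ± 3.05 CPM in control. Between the plasmids it was not called. Its log2 fold change there ran from -0.47 to -0.15 under 15 alternatives, of which 11 left the result the same. Of these genes 31 were tested in AP001189.3 against control, without DNAJA4, and 6 rose and 4 fell, beside 11.4% higher and 8.49% lower over all genes, with a median of 0.06. DNAJB2 (0.68, SE 0.09, edgeR adjusted p = 4.8e-06) and the ubiquitin ligase STUB1 (0.48, SE 0.10, edgeR adjusted p = 0.0011) rose, and the heat shock factor HSF2 fell (-0.55, SE 0.12, edgeR adjusted p = 0.0016). With a GC offset STUB1 was at 0.24 and lost its call (adjusted p = 0.10). With all 9 libraries in 1 fit (2.64% of all genes called) DNAJB2 kept its call, and it was the only gene of this list called. Between the plasmids 7 of 32 were higher with LINC00996 and 0 lower, beside 9.38% and 12.1% over all genes, with a median of 0.12. HSPA4L, an HSP110 protein like HSPH1, showed the largest difference among the 3 with the smallest adjusted p (0.87, SE 0.16), beside FKBP4 (0.59) and HSBP1 (0.48). These were 1.03, 0.47 and 0.46, and the median was 0.15, without LINC00996 replicate 1. The number called in LINC00996 against control fell from 11 to 3 without any 1 of the control libraries and to 7 without LINC00996 replicate 2, where the share of all genes called fell from 22.3% to 12.6, 11.6, 13.1 and 15.0%. That in AP001189.3 against control fell from 10 to 5 without control replicate 2 and to 6 without AP001189.3 replicate 2 or 3, where the share of all genes fell from 19.8% to 12.0, 11.6 and 13.6%. Between the plasmids it fell from 7 to 4 without LINC00996 replicate 2 or any 1 AP001189.3 library (11.2 to 12.8% of all genes in place of 21.4%) and rose to 16 (12 higher, 4 lower) without LINC00996 replicate 1 (41.6% of all genes).

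Mitochondrial chaperones and proteases are the other quality control genes of the compartment in which HSPE1 and HSPD1 work. Of 21 genes, 3 rose, 1 fell and 17 did not pass the test in LINC00996 against control, with a median of 0.12. Over all genes 10.7% were called higher and 11.6% lower, so the count is near the background and says nothing particular of the list. The inner membrane protease OMA1 (0.67, SE 0.14, edgeR adjusted p = 0.0062) and the matrix protease subunit CLPP (0.56, SE 0.14, edgeR adjusted p = 0.016) rose, and the J-domain protein DNAJC15 fell (-0.89, SE 0.17, edgeR adjusted p = 0.0035), from 8.0 ± 0.685 to 4.32 ± 0.620 CPM. These 3 genes had log2 fold changes of 0.64, 0.40 and -0.77 without LINC00996 replicate 1, and the median was 0.09. HSPA9, the mitochondrial HSP70 protein, was at 479 ± 23.3 CPM in the control, 480 ± 14.6 CPM in the LINC00996 and 443 ± 15.3 CPM in the AP001189.3 libraries. With AP001189.3 against control 2 rose and 1 fell, beside 11.4% and 8.49% over all genes, with a median of 0.04. These were CLPP (0.55, SE 0.09, edgeR adjusted p = 8.7e-05), TIMM44 (0.39, SE 0.10), which tethers HSPA9 to the import channel, and the unfoldase CLPX, which works with CLPP and fell (-0.25, SE 0.06). With a GC offset CLPP was at 0.34, CLPX at -0.16 and TIMM44 at 0.23, and TIMM44 lost its call (adjusted p = 0.11). With all 9 libraries in 1 fit (2.64% of all genes called) CLPP kept its call, and it was the only gene of this list called. Between the plasmids CLPB, a disaggregase, was higher with LINC00996 (0.37, SE 0.12, edgeR adjusted p = 0.043) and DNAJC15 lower (-0.91, SE 0.17, edgeR adjusted p = 0.0025), beside 9.38% and 12.1% over all genes, with a median of 0.07, and OMA1 at 0.44 missed the threshold (edgeR adjusted p = 0.055). With LINC00996 replicate 1 left out, they were at 0.40, -0.79 and 0.41, with a median of 0.11, and all 3 were called. The number called in LINC00996 against control fell from 4 to 2 without control replicate 2 or 3 (11.6 and 13.1% of all genes called in place of 22.3%), where CLPP was lost, and rose to 8 (5 higher, 3 lower) without LINC00996 replicate 1 (33.2% of all genes). It rose from 3 to 5 in AP001189.3 against control without control replicate 1 (21.9% of all genes in place of 19.8%). Between the plasmids it was 11 (6 higher, 5 lower) in place of 2 without LINC00996 replicate 1 (41.6% of all genes in place of 21.4%), and 1 without LINC00996 replicate 2 or any 1 AP001189.3 library (11.2 to 12.8%), where CLPB was lost, as it was without LINC00996 replicate 3, with DESeq2 and without the filter.

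Endoplasmic reticulum chaperones, which belong to a separate stress response, had medians below 0 in both comparisons of LINC00996 and near 0 in AP001189.3 against control. In LINC00996 against control, 1 of 18 rose, 2 fell and 15 did not pass the test, with a median of -0.13. Over all genes 10.7% were called higher and 11.6% lower, so the count is not above the background. The secreted factor MANF rose (0.60, SE 0.12, edgeR adjusted p = 0.0049), and the disulfide isomerase P4HB (-0.47, SE 0.09, edgeR adjusted p = 0.0032) and the J-domain protein DNAJB9 (-0.37, SE 0.11, edgeR adjusted p = 0.037) fell. Without LINC00996 replicate 1 they were at 0.48, -0.55 and -0.30, and the median was -0.08. P4HB was at 1450 ± 50.6 CPM in the control, 1051 ± 106 CPM in the LINC00996 and 1238 ± 47.0 CPM in the AP001189.3 libraries. With AP001189.3 against control 5 rose and 2 fell, beside 11.4% and 8.49% over all genes. The median was -0.01, and 9 of the 18 estimates were above 0. MANF rose (0.38, SE 0.09), and DNAJC3 (-0.34, SE 0.07) and P4HB (-0.23, SE 0.05) fell. With a GC offset P4HB was at -0.37. With all 9 libraries in 1 fit (2.64% of all genes called) 0 of the 18 were called, and the edgeR adjusted p of these 3 genes was 0.080, 0.10 and 0.12. Between the plasmids 0 were higher with LINC00996 and 1 lower, PDIA6 (-0.23, SE 0.08, edgeR adjusted p = 0.048), a call that was lost under 11 of 15 alternatives, beside 9.38% higher and 12.1% lower over all genes. The median was -0.11, and P4HB (-0.24) and CALR (-0.23) missed the threshold. Without LINC00996 replicate 1 the median was -0.10, PDIA6 was at -0.22, and P4HB (-0.32) and CALR (-0.32) were called. HSPA5, the HSP70 protein of this compartment and its usual stress marker, was not called in any comparison (log2 fold changes -0.13, -0.04 and -0.09, smallest edgeR adjusted p = 0.29), and without LINC00996 replicate 1 it was at -0.10 against control and -0.06 between the plasmids. Without LINC00996 replicate 1 the number of genes of this list called was 10 (3 higher, 7 lower) in place of 3 in LINC00996 against control and 9 (2 higher, 7 lower) in place of 1 between the plasmids, where 33.2 and 41.6% of all genes were called in place of 22.3 and 21.4%. Without LINC00996 replicate 3 it was 5 and 0 (23.0 and 20.0% of all genes), and between the plasmids it was 0 without any other library (11.2 to 12.8%). DNAJB9 lost its call without any 1 of the control libraries or LINC00996 replicate 2, with library size alone and with the transcript length offset.

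**Figure D5:**
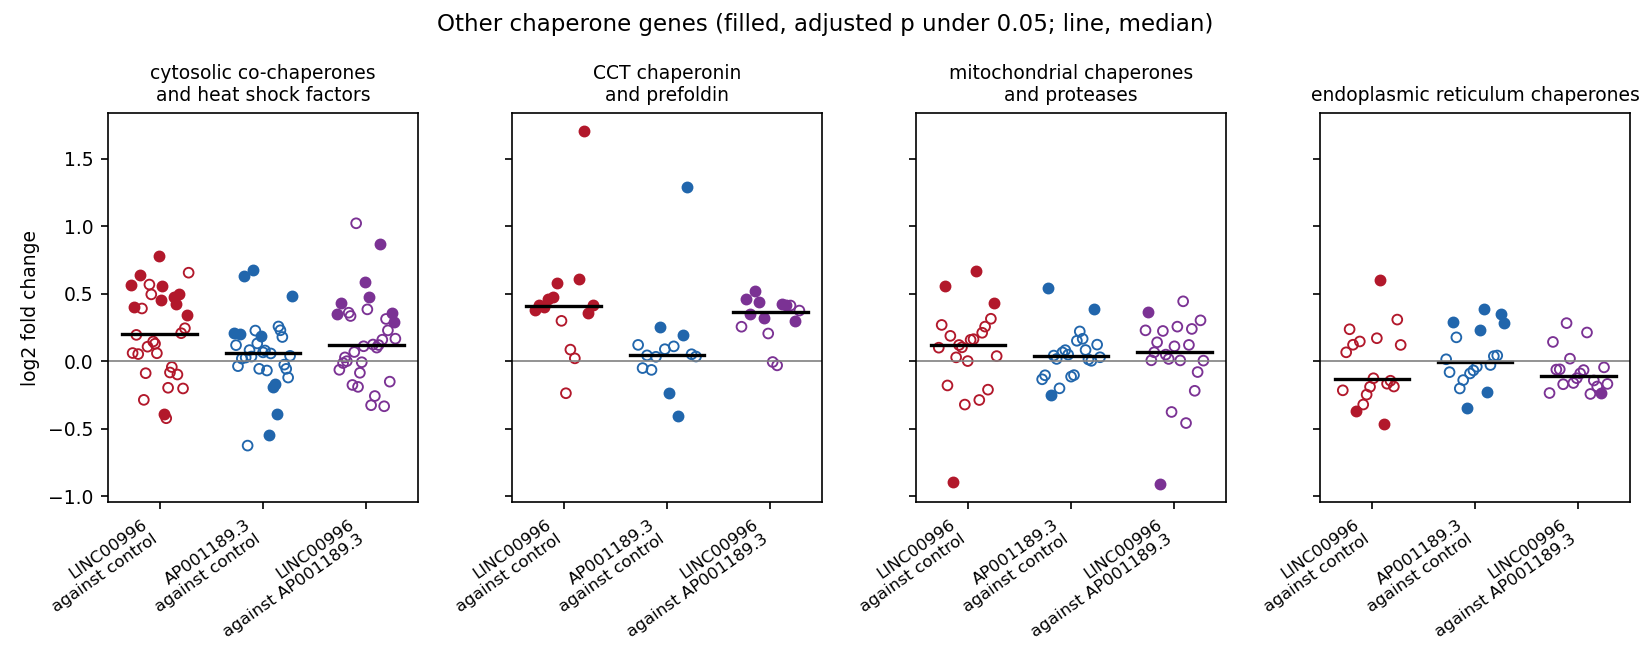
Log2 fold changes (y axis) of the genes of 4 other chaperone lists in the 3 comparisons. Each point is a gene, filled where the edgeR adjusted p is under 0.05, and the black line is the median of the list. The CCT and prefoldin genes have medians of 0.41 and 0.36 in the comparisons of LINC00996 with control and with AP001189.3 and of 0.05 in AP001189.3 against control.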

How the data were processed

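RNA-seq libraries of A549 cells with a control plasmid, LINC00996 or AP001189.3 (3 each, grouped by their titles) were used. Deposited by the authors were raw, unnormalized counts of reads per gene and, for each library, FPKM values. The submitters' processing notes name HISAT2 2.0.5, featureCounts 1.5.0-p3 and GRCh38. The deposited gene coordinates equal those of GENCODE 29 for 58724 of 58735 genes. Settings for strand and for reads on several genes are not given in the sources used here.

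The counts were tested in edgeR 4.0.16 (R 4.3.3) with filterByExpr, TMM factors and the robust quasi-likelihood test, on the 6 libraries of each comparison, with Benjamini-Hochberg adjustment over all genes tested. Genes with an adjusted p under 0.05 were called, and "rose" and "fell" refer to called genes. Confidence intervals (95%) use the standard error of edgeR. CPM values use TMM factors, log2 CPM a prior count of 2. FPKM served for levels between genes. The scripts were tested on simulated data. Depth was 15272450 to 18125447 counts per library.

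The 10 genes, the lists and the tests were chosen with earlier results of these data known. Named from each list are the 3 genes with the smallest adjusted p per comparison, and HSF1, HSPA5 and HSPA9 were added after their values had been seen. Likeness was ranked over protein-coding genes of at least 10 CPM. The counts of called genes and the log2 fold changes were recomputed with DESeq2 1.42.0, with scaling by library size alone, without the filter, with a minimum of 10 counts per library, in a single fit of the 9 libraries, with the replicate number as a block, with an offset for gene length, with each library left out and, added after the data had been seen, offsets for transcript length and GC content (loess span 0.75). Promoter sequences are from RefSeq (GRCh38.p14).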

Additional observations from a re-analysis of the deposited data

How the results depend on the processing

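Of 450 alternative values of the 30 log2 fold changes of the 10 chaperone genes, 402 kept their direction and their side of the threshold, 26 lost the call, 6 gained one and 16 uncalled values changed sign. Losses fell on HSPA8 and HSP90AB1 in LINC00996 against control (without any library but LINC00996 replicate 1, and for HSP90AB1 also without the filter or with the gene length offset), on HSP90AB1 and HSPH1 between the plasmids and, in AP001189.3 against control, on HSPA1A, HSPA8, HSPB1 and HSPH1 with all 9 libraries in 1 fit, and HSPB1 also with the GC offset. Between the plasmids, gains fell on HSPA1A (gene length, transcript length and GC offsets), DNAJB1 (GC offset), and HSPA1B and HSPB1 (without LINC00996 replicate 1). The cause was not tested. The levels moved by less than 1 SD with library size alone. Depth sets the precision least for the abundant genes and most for HSPE1, HSPA1A and HSPA1B, which had 232 to 903 counts per library.

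Among uncalled values, HSPB1 in LINC00996 against control was -0.045 with an offset for transcript length, and with an offset for GC content HSPD1 was 0.042 and HSP90AA1 0.033 in AP001189.3 against control, and MOB4 -0.0435 between the plasmids. With single libraries left out, HSPA1B ranged from -0.21 to 0.22, HSPB1 from -0.0402 to 0.20, HSPH1 from -0.0126 to 0.16 and MOB4 from -0.29 to 0.0148 in LINC00996 against control. In AP001189.3 against control HSPD1 ranged from -0.062 to 0.0345, HSP90AA1 from -0.0576 to 0.0396, HSP90AB1 from -0.0407 to 0.0109 and DNAJB1 from -0.0449 to 0.0092. Between the plasmids HSPA1B ranged from -0.42 to 0.0016 and MOB4 from -0.0785 to 0.23.

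In LINC00996 against control, the GC offset called 6047 genes (3108 higher, 2939 lower), among them 18 cytosolic, 7 mitochondrial and 9 endoplasmic reticulum genes of the lists, and the last list had 6 with all 9 libraries in 1 fit. In AP001189.3 against control, the single fit of 9 libraries called 437 genes (344 higher, 93 lower). Of the 10 chaperones it called 1 higher (HSPE1, given as a description) and 0 lower. Of the cytosolic, mitochondrial, CCT and endoplasmic reticulum lists it called 1, 1, 1 and 0 genes. The GC offset called 1176 higher there, and 3 of the last list. Between the plasmids, the GC offset called 6019 genes (3350 higher), with 12 cytosolic, 9 mitochondrial and 7 endoplasmic reticulum genes. The mitochondrial count of 2 became 1 with DESeq2 or without the filter, 5 with library size alone or either length offset, and 4 in the single fit. The endoplasmic reticulum count of 1 became 0 with DESeq2, library size alone, no filter or the transcript length offset, and 3 in the single fit.

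With single libraries left out, LINC00996 against control gave 1925 to 5481 genes (803 to 2621 higher, 1122 to 2860 lower), the lowest without control replicate 2 and the highest without LINC00996 replicate 1. The lists gave 3 to 15 cytosolic, 2 to 8 mitochondrial, 6 to 12 CCT and prefoldin and 2 to 10 endoplasmic reticulum genes. AP001189.3 against control gave 1914 to 3598 genes (679 to 1610 lower), the lowest without AP001189.3 replicate 2, and 5 to 10, 3 to 5 and 2 to 5 genes of the first 3 lists. Between the plasmids there were 1840 to 6828 genes (597 to 3326 higher, 1243 to 3502 lower), the lowest without AP001189.3 replicate 1 and the highest without LINC00996 replicate 1. Of the 10 chaperones 0 to 2 were lower, and the lists gave 4 to 16, 1 to 11, 2 to 12 and 0 to 9 genes. The number of genes shared with the 5 most like HSPE1 or HSPD1 was 2 without LINC00996 replicate 1.

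Whether the replicate numbers of the titles pair the libraries is not known. Deviations from the group means of same-numbered libraries correlated at -0.019 to 0.16. In each pair of groups 2 of 3 libraries correlated best with their own number, which is a hint from the data only. With the replicate number as a block, 4500, 3466 and 3772 genes were called in the 3 comparisons in place of 3588, 3180 and 3452. The counts of the 10 chaperones called were the same, and the endoplasmic reticulum list had 5 in place of 3 in LINC00996 against control.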
